A study of Rattus norvegicus with 16 samples.

Results

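Schwann cells are the glia of peripheral nerves, and the expression of 8 genes that mark them or build their myelin was followed here in rat mesenteric arteries. *Mbp*, *Pmp22*, *Mag* and *Prx* code for proteins of the myelin sheath or its lining, *Sox10* for a transcription factor of the lineage, *S100b* for a calcium-binding protein, *Ngfr* for the p75 neurotrophin receptor and *Myoc* for the secreted protein myocilin. The genes were chosen by name, and their probes were those whose accession is a RefSeq transcript of 1 of the genes. This gave 11 of the 30367 probes on the array, and 8 of the 15443 genes that had a named probe. *Mbp*, *S100b* and *Mag* had 2 probes each, and the probe with the highest mean test signal stands for the gene unless the other is named.

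The arteries came from male rats of the spontaneously hypertensive strain (SHR), an inbred strain in which blood pressure climbs with age, and of the normotensive Wistar-Kyoto strain (WKY), each sampled young (6 weeks) and mature (5 months). Every sample was a pool of small mesenteric artery branches from 5 animals of 1 subline, freed of fat and blood but with adventitia and endothelium left on, so that perivascular nerve bundles could be part of it. The labels give the sublines as WKY/NCrL, WKY/NHsd, WKY/NTac, SHR/NCrL, SHR/NHsd and SHR/SP, the last being stroke-prone per the study's methods, and they name no added allele and no treatment. The test RNA (Cy3) of each pool was hybridised on an Agilent rat array against 1 common reference made from all test samples (Cy5), and a value is the log2 of test signal over reference signal, so that 0 is the level of the reference and 1 is a doubling.

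Of 16 arrays, 14 passed quality control and covered 10 pools. They were 3 pools of WKY at 6 weeks on 3 arrays, 2 pools of WKY at 5 months on 2 arrays, 3 pools of SHR at 6 weeks on 5 arrays and 2 pools of SHR at 5 months on 4 arrays. Neither NHsd subline had a passing array at 5 months, so this subline, which the methods say was bred in a local facility, is present at 6 weeks only. On the passing arrays the scanner software marked 65.4% to 71.9% of spots as well above background for the test RNA. The number of pools limits the precision. The p-values rest on the spread among arrays of a group, which joins pools of different sublines and, in SHR, repeat arrays of a pool. Of the artery's own markers, 8 of 8 smooth muscle genes and 7 of 7 endothelial genes were well above background on all 14 arrays. The brightest probes of all 8 Schwann cell and myelin genes were well above background on all 14 arrays.

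As background, Schwann cells either wrap single axons in compact myelin or hold several thin axons without it, and perivascular nerves of small arteries are mostly of the second kind. SOX10 is needed throughout the lineage and, together with EGR2, turns on genes of the myelin sheath. MBP and PMP22 hold compact myelin together, MAG sits at the inner contact between glia and axon, and periaxin, the product of *Prx*, links the outer Schwann cell membrane to the basal lamina. S100B and the p75 receptor are used as markers of Schwann cells, the latter above all of those that do not myelinate, and myocilin, best known from the eye, is also made in peripheral nerve.

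Promoter sequences, windows of 300 bases that hold a gene's start, were taken from RefSeq (GRCr8). An entry was found for 6 of the 8 genes (*Mbp* with 2 entries, *Pmp22*, *S100b*, *Mag*, *Prx* and *Myoc*), and *Sox10* and *Ngfr* had none in the table. The words ACAAAG and ACAATG, which SOX proteins can bind, were searched on both strands together with GCGTGGGCG, a word of EGR proteins. Shown are the second *Mbp* entry and the *Mag* entry, the 2 that held a word (in capitals), and those of *Pmp22* and *Myoc*, the genes called below, which held none.
Mbp, chr18:78209995-78210294, + strand: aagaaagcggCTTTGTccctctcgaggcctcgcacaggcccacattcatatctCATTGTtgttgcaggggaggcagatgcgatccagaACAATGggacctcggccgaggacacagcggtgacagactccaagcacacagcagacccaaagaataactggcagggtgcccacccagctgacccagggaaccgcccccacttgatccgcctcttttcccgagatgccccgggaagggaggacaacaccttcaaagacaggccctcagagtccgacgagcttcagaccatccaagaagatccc
Mag, chr1:95290995-95291294, - strand: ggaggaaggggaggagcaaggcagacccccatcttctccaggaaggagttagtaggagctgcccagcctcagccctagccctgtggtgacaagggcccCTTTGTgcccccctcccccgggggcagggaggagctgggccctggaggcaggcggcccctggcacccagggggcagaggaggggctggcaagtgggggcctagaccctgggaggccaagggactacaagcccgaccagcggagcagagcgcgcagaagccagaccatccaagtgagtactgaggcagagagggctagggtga
Pmp22, chr10:48294682-48294981, + strand: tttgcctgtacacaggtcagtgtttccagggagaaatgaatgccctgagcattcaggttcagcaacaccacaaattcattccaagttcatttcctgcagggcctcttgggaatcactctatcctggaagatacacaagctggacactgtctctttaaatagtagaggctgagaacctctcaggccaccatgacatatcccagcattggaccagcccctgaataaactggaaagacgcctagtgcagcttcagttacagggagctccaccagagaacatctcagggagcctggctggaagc
Myoc, chr13:77509713-77510012, + strand: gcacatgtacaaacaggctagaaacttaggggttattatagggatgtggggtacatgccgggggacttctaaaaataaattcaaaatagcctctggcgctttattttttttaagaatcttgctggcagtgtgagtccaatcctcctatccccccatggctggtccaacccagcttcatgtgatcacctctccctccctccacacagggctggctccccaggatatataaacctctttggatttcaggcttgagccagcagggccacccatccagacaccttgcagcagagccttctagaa
Counted from 1 at the 5′ end, the *Mbp* window held ACAAAG at position 11 on the opposite strand and ACAATG at positions 54 (opposite strand) and 89. The *Mag* window held ACAAAG at position 99 on the opposite strand. ACAAAG was in 18.8% and ACAATG in 13.2% of 33469 promoter windows of the same length, 29.1% had either word, and GCGTGGGCG was in 0.544%. The share of genes with either SOX word, 2 of 6, counts *Mbp* with its 2 windows once, whereas the 29.1% is counted over windows. It is a description, and a word is not a bound site.

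*Mbp* codes for myelin basic protein, the main protein on the inner face of compact myelin, and was the gene with the widest spread between pools of a group. In WKY at 6 weeks its log2 ratio was 0.55 in WKY/NCrL, 0.11 in WKY/NHsd and -1.96 in WKY/NTac. In WKY at 5 months it was -1.86 in WKY/NCrL and -0.90 in WKY/NTac. The WKY/NTac pool of 6 weeks was the lowest of all pools, so the ages overlapped in WKY. In SHR at 6 weeks the log2 ratio was -0.15 in SHR/NCrL, 1.47 in SHR/NHsd and 0.18 in SHR/SP, and at 5 months it was -1.61 in SHR/NCrL and -0.71 in SHR/SP. Both mature SHR pools thus lay below all 3 young ones. The log2 change upon maturation was -0.95 in WKY (SE 0.61, limma adjusted p = 0.890) and -1.73 in SHR (SE 0.53, 3.31-fold, limma adjusted p = 0.172), and neither passed the threshold of 0.05. Of 10 fits that left out 1 pool, *Mbp* was called in SHR in 1 only, that without the WKY/NTac pool of 6 weeks, its lowest value (limma adjusted p = 0.0359, log2 change -1.73), and the limma adjusted p was 0.116 to 0.727 in the 9 others.

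The second *Mbp* probe, for another transcript accession of the gene, was dimmer (mean log2 test signal 6.17 against 11.09) and did not show this range. Its pools lay between -0.09 and -0.02 in young WKY, at 0.13 and -0.16 in mature WKY, between -0.05 and 0.64 in young SHR, and at 0.01 and -0.21 in mature SHR. The highest pool was again SHR/NHsd at 6 weeks. Which transcripts each probe reads was not tested.

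*Pmp22* codes for peripheral myelin protein 22 of compact myelin and also has epithelial and fibroblast expression. Its log2 ratio in young WKY was 0.22 in WKY/NCrL, 0.02 in WKY/NHsd and -0.07 in WKY/NTac, and in mature WKY it was -0.47 in WKY/NCrL and -0.36 in WKY/NTac. In young SHR it was -0.03 in SHR/NCrL, 0.56 in SHR/NHsd and -0.01 in SHR/SP, and in mature SHR it was -0.43 in SHR/NCrL and -0.40 in SHR/SP. All 4 mature pools lay below all 6 young pools, in both strains. The log2 change upon maturation was -0.47 in WKY (SE 0.18, limma adjusted p = 0.609) and -0.61 in SHR (SE 0.16, limma adjusted p = 0.0949). Averaged over both strains *Pmp22* fell by 0.54 on the log2 scale (SE 0.12, 1.46-fold, limma adjusted p = 0.0344), 1 of 2 genes of the 8 that passed in this comparison, while 1.16% of all probes were called lower. As in all these pooled arteries, fewer cells of a type and less RNA per cell cannot be told apart.

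The averaged call of *Pmp22* was lost in 7 of 10 fits that left out 1 pool. Its limma adjusted p was 0.0991 without WKY/NCrL of 6 weeks, 0.0550 without WKY/NHsd of 6 weeks, 0.169 without WKY/NCrL of 5 months, 0.0896 without WKY/NTac of 5 months, 0.0664 without SHR/NHsd of 6 weeks, 0.134 without SHR/NCrL of 5 months and 0.101 without SHR/SP of 5 months. The log2 change itself stayed between -0.60 and -0.43 in these fits.

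**Figure D1:**
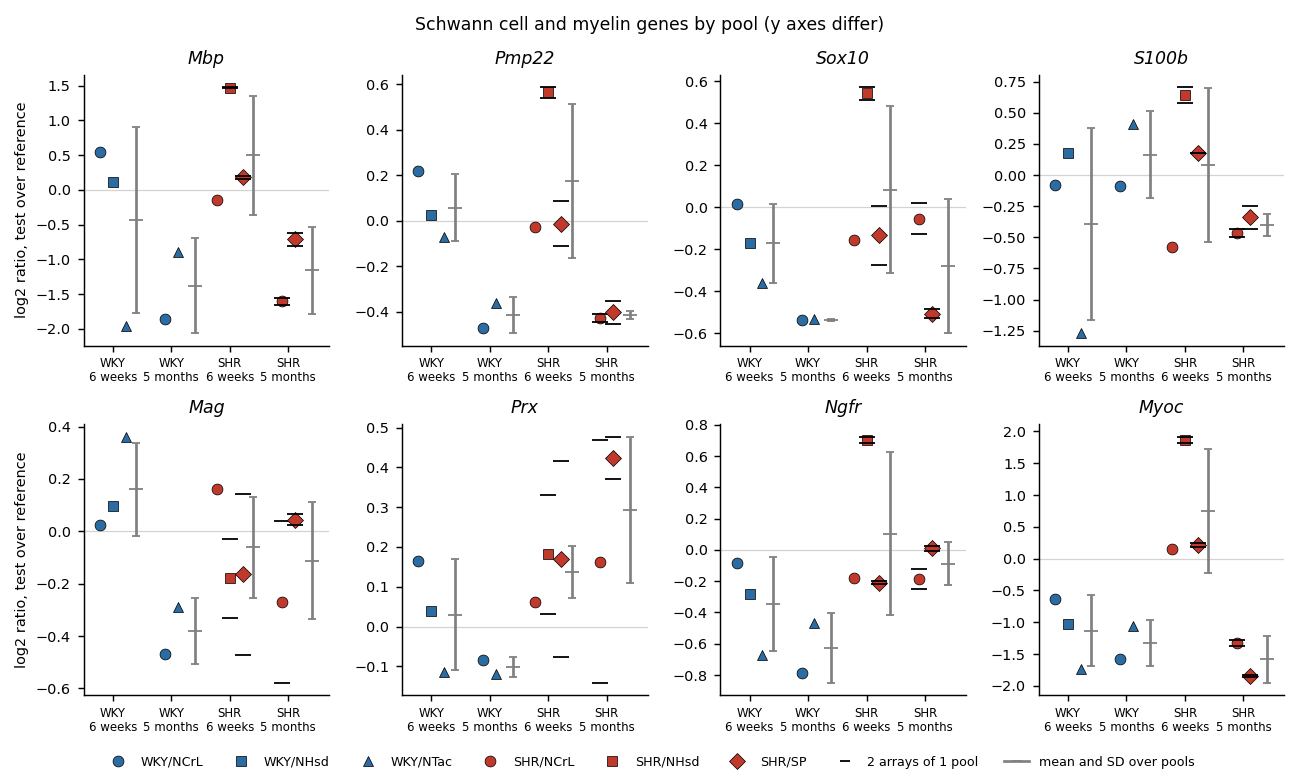
Log2 ratio of test over reference (y axis, scales differ) of each gene in every pool, by strain and age (x axis). Symbols are pools, short black lines the 2 arrays of a pool that had 2, and grey bars the mean and SD over pools. The 4 mature pools of *Pmp22* lie below its 6 young pools, and the SHR/NHsd pool of 6 weeks (red square) is the highest for 6 genes.

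*Mag*, myelin-associated glycoprotein, and *Prx*, periaxin, stood apart from *Mbp* and *Pmp22*. The log2 ratio of *Mag* in young WKY was 0.03 in WKY/NCrL, 0.10 in WKY/NHsd and 0.36 in WKY/NTac, and in mature WKY it was -0.47 in WKY/NCrL and -0.29 in WKY/NTac. In young SHR it was 0.16 in SHR/NCrL, -0.18 in SHR/NHsd and -0.16 in SHR/SP, and in mature SHR -0.27 in SHR/NCrL and 0.05 in SHR/SP. The ages did not overlap in WKY and overlapped in SHR. The log2 change was -0.54 in WKY (SE 0.26, limma adjusted p = 0.778) and -0.03 in SHR (SE 0.22, limma adjusted p = 0.999). *Mag* was read by 1 spot per array, and its 2 arrays of SHR/NCrL at 5 months gave 0.04 and -0.58, a gap of 0.62 beside a range of 0.83 over the 10 pools. The second *Mag* probe was not well above background on any array and is not used.

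The log2 ratio of *Prx* lay between -0.11 and 0.16 in young WKY, at -0.08 and -0.12 in mature WKY, between 0.06 and 0.18 in young SHR, and at 0.16 and 0.42 in mature SHR. Its log2 change upon maturation was -0.13 in WKY (SE 0.23, limma adjusted p = 0.984) and 0.15 in SHR (SE 0.20, limma adjusted p = 0.960). Its range over the 10 pools, 0.54, was smaller than the largest gap between 2 arrays of 1 pool, 0.61, so that pools could not be ordered by this gene.

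*Sox10*, which codes for the transcription factor that Schwann cells keep from the neural crest onwards, had a log2 ratio in young WKY of 0.02 in WKY/NCrL, -0.17 in WKY/NHsd and -0.36 in WKY/NTac. In mature WKY it was -0.54 in WKY/NCrL and -0.53 in WKY/NTac, below all young WKY pools. In young SHR it was -0.16 in SHR/NCrL, 0.54 in SHR/NHsd and -0.13 in SHR/SP, and in mature SHR -0.05 in SHR/NCrL and -0.51 in SHR/SP, so that the ages overlapped. The log2 change was -0.36 in WKY (SE 0.23, limma adjusted p = 0.881) and -0.39 in SHR (SE 0.20, limma adjusted p = 0.593), and averaged over strains it was -0.38 (SE 0.15, limma adjusted p = 0.334).

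*S100b* had a log2 ratio in young WKY of -0.08 in WKY/NCrL, 0.17 in WKY/NHsd and -1.27 in WKY/NTac, and in mature WKY of -0.08 in WKY/NCrL and 0.41 in WKY/NTac. In young SHR it was -0.58 in SHR/NCrL, 0.64 in SHR/NHsd and 0.18 in SHR/SP, and in mature SHR -0.47 in SHR/NCrL and -0.34 in SHR/SP. The ages overlapped in both strains. The log2 change had opposite signs, 0.56 in WKY (SE 0.37, limma adjusted p = 0.894) and -0.55 in SHR (SE 0.32, limma adjusted p = 0.691), and the difference between them did not pass the test (-1.11, SE 0.49, limma adjusted p = 1.00). S100B is also made by adipocytes, whose markers are given below. The second *S100b* probe was well above background on 1 of 14 arrays and is not used.

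*Ngfr*, the p75 receptor of nerve growth factor and its relatives, had a log2 ratio in young WKY of -0.08 in WKY/NCrL, -0.28 in WKY/NHsd and -0.67 in WKY/NTac, and in mature WKY of -0.79 in WKY/NCrL and -0.47 in WKY/NTac. In young SHR it was -0.18 in SHR/NCrL, 0.70 in SHR/NHsd and -0.21 in SHR/SP, and in mature SHR -0.19 in SHR/NCrL and 0.01 in SHR/SP. The ages overlapped in both strains, and the log2 change was -0.28 in WKY (SE 0.26, limma adjusted p = 0.958) and -0.22 in SHR (SE 0.22, limma adjusted p = 0.927).

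*Myoc* showed the largest change of the 8 genes. Its log2 ratio in young SHR was 0.16 in SHR/NCrL, 1.87 in SHR/NHsd and 0.21 in SHR/SP, and in mature SHR it was -1.32 in SHR/NCrL and -1.85 in SHR/SP. Every young SHR pool lay above the reference and every mature one far below it. In young WKY the log2 ratio was already low, -0.64 in WKY/NCrL, -1.03 in WKY/NHsd and -1.74 in WKY/NTac, and in mature WKY it was -1.58 in WKY/NCrL and -1.07 in WKY/NTac, so that the ages overlapped. The group means were 0.74 ± 0.97 (SD, n = 3 pools) in young SHR, -1.59 ± 0.37 (n = 2) in mature SHR, -1.13 ± 0.56 (n = 3) in young WKY and -1.32 ± 0.36 (n = 2) in mature WKY. In SHR *Myoc* fell by 2.39 on the log2 scale (SE 0.39, 5.24-fold, limma adjusted p = 0.00870), whereas 0.685% of all probes were called lower in SHR. In WKY the log2 change was -0.19 (SE 0.45, limma adjusted p = 0.990). Averaged over both strains *Myoc* fell by 1.29 (SE 0.30, limma adjusted p = 0.0408). The difference of the age change between strains was -2.20 (SE 0.59), with an unadjusted p of 0.00209 but a limma adjusted p of 1.00 over all probes, and was therefore not called. *Myoc* is not particular to nerve, and which cells its change came from was not tested. Markers of adipocytes and fibroblasts are given below.

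Leaving out the SHR/SP pool of 5 months ended the call of *Myoc* in SHR (log2 change -2.13, limma adjusted p = 0.145), and leaving out the SHR/NHsd pool of 6 weeks left a log2 change of -1.77 (limma adjusted p = 0.0194). The call also ended, with log2 changes of -2.54 to -2.16, on processed signals of the scanner software (limma adjusted p = 0.0525), with technical replicates averaged (0.143), with 1 array per pool (0.142) and with the failed arrays included (0.139). The averaged call of *Myoc* was lost without WKY/NCrL or WKY/NHsd of 6 weeks, WKY/NCrL or WKY/NTac of 5 months, or SHR/NCrL or SHR/SP of 5 months (limma adjusted p 0.0740 to 0.207). Within slides, each of which was scanned in 1 session and held arrays of all 4 groups, the log2 change of *Myoc* in SHR was -1.76 on slide 1 and -2.61 on slide 2, and that of *Pmp22* was -0.36 and -0.72 in SHR and -0.55 and -0.39 in WKY. Young SHR was SHR/NCrL alone on slide 1 and SHR/NHsd and SHR/SP on slide 2, while both mature SHR pools were on each slide. The WKY pools also differed between slides. Slide and subline thus cannot be told apart in these values.

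Counted over the genes, maturation in WKY gave a negative log2 change for 7 of 8 genes and in SHR for 7 of 8, the exceptions being *S100b* in WKY and *Prx* in SHR. Of all 15443 genes, 51.18% were negative in WKY and 48.73% in SHR. None of the 8 was called in WKY (1 at an unadjusted p under 0.05), where 0.148% of all probes were called lower, and 1, *Myoc*, was called in SHR (3 at an unadjusted p under 0.05). Of all 30367 probes, 1981 in WKY and 2904 in SHR had an unadjusted limma p under 0.05. The median log2 change over the 8 genes was -0.32 in WKY, -0.47 in SHR and -0.33 averaged over strains, beside medians of -0.01, 0.01 and 0.00 over all 15443 genes. Pools of 5 months lay below all pools of 6 weeks for *Pmp22*, *Sox10* and *Mag* in WKY and for *Mbp*, *Pmp22* and *Myoc* in SHR, 3 of 8 in each. Of all probes, 11.1% in WKY and 11.6% in SHR were separated in this direction.

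**Figure D2:**
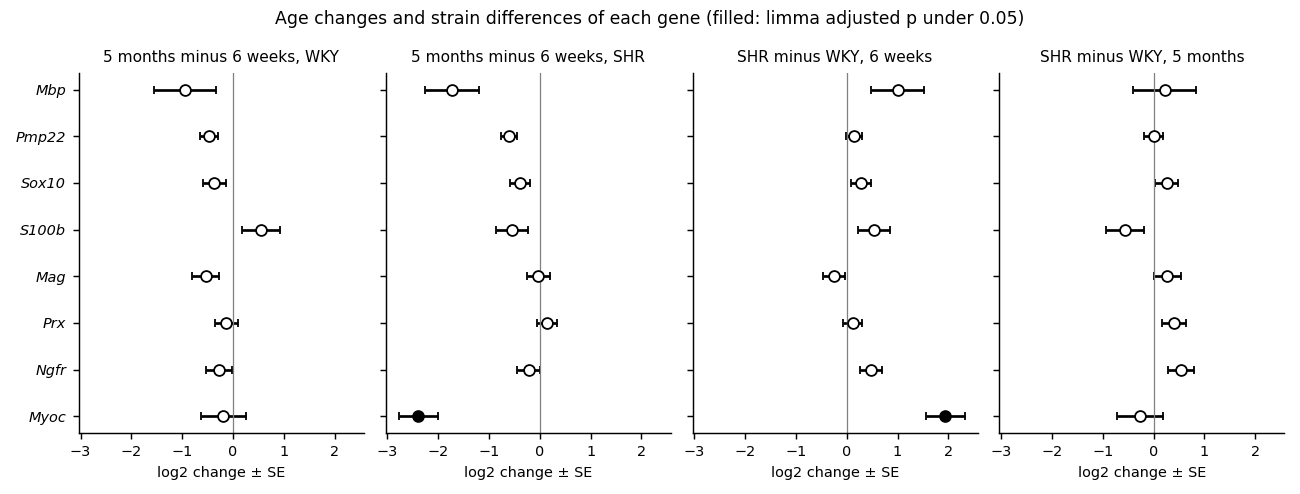
Log2 change with its SE (x axis) of each gene for maturation in WKY, maturation in SHR, SHR vs. WKY at 6 weeks and SHR vs. WKY at 5 months. Filled points passed the limma test at an adjusted p under 0.05, which only *Myoc* did, in SHR upon maturation (-2.39) and between strains at 6 weeks (1.94).

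Age changes and strain differences were set side by side as averages. The size of the age change averaged over strains exceeded that of the strain difference averaged over ages for 5 of 8 genes, *Mbp* (1.34 and 0.61), *Pmp22* (0.54 and 0.07), *Sox10* (0.38 and 0.27), *Mag* (0.28 and 0.01) and *Myoc* (1.29 and 0.84). The strain difference was the larger for *Ngfr* (0.51 against an age change of 0.25), *Prx* (0.25 and 0.01) and, with both near 0, *S100b*. Over all 15443 genes the root mean square was 0.24 for the averaged age change and 0.23 for the averaged strain difference. The share of all genes with a larger age change was not counted. For *Myoc* the averaged strain difference joins 1.94 at 6 weeks and -0.26 at 5 months. At 6 weeks the median strain difference of the 8 genes, 0.38, exceeded in size their averaged age change, -0.33. Whether the age change and the strain difference of a gene differ from each other was not tested. No gene was called for SHR vs. WKY averaged over ages (2 at an unadjusted p under 0.05, *Ngfr* and *Myoc*), a comparison in which 1.31% of all probes were called. In it 3365 of 30367 probes had an unadjusted limma p under 0.05.

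At 6 weeks 7 of 8 genes were higher on average in SHR than in WKY, with a median log2 difference of 0.38. Of all 15443 genes, 50.04% were lower in SHR. *Myoc* was higher in SHR by 1.94 on the log2 scale (SE 0.38, 3.83-fold, limma adjusted p = 0.0445), with all 3 SHR pools above all 3 WKY pools, and it was the only 1 of the 8 called or separated. Of all probes 0.29% were called at 6 weeks and 12.4% were separated in either direction. *Mbp* differed by 1.00 (SE 0.52, limma adjusted p = 0.693) and *Ngfr* by 0.48 (SE 0.22, limma adjusted p = 0.601). The call of *Myoc* was close to the threshold. It was kept in 6 of 27 alternative fits, and among the fits that left out 1 pool it held only without SHR/NCrL of 6 weeks (limma adjusted p = 0.0328), with values of 0.0556 to 0.155 in the 9 others. Without the SHR/NHsd pool of 6 weeks the log2 difference was 1.32. The limma adjusted p was 0.0519 with outlier spots kept and 0.0521 on the deposited ratios. With slide as a block it was 0.0895, and within slides, which held different sublines at 6 weeks, the difference was 1.34 and 2.07.

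At 5 months none of the 8 genes was called between strains (0 at an unadjusted p under 0.05 as well), and 0.395% of all probes were. An unadjusted limma p under 0.05 was seen for 2393 of 30367 probes. *Sox10*, *Mag*, *Prx* and *Ngfr* were higher in both SHR pools than in both WKY pools, and *S100b* was lower, 5 of 8 genes in all. For *Sox10* the closest pools were SHR/SP at -0.506 and WKY/NTac at -0.531, and for *Mag* SHR/NCrL at -0.270 and WKY/NTac at -0.290. Both gaps were smaller than the gene's SD between the 2 arrays of a pool. With 2 pools against 2, 37.9% of all probes were separated in either direction. The largest difference was that of *S100b*, -0.57 (SE 0.37, limma adjusted p = 0.818), followed by *Ngfr* with 0.54 (SE 0.26, limma adjusted p = 0.656). *Pmp22* differed by 0.00 (SE 0.19) and *Myoc* by -0.26 (SE 0.46), so that the strain difference of *Myoc* at 6 weeks had no counterpart of the same sign at 5 months. For the strain by age interaction 0% of all probes were called, and 2 of the 8 genes, *Myoc* and *S100b*, had an unadjusted p under 0.05. So had 1250 of 30367 probes (limma).

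For most genes the spread between pools exceeded that between arrays, while the fit used 1 correlation of 0.442 for all probes. With technical replicates averaged, 0 of the 8 genes were called in SHR, averaged over strains or between strains at 6 weeks. The SD between the 2 arrays of a pool was 0.08 for *Mbp*, 0.08 for *Pmp22*, 0.12 for *Sox10*, 0.08 for *S100b*, 0.05 for *Ngfr* and 0.06 for *Myoc*. The SD between pools of a group was larger for each of these 6 genes, 1.00, 0.21, 0.29, 0.59, 0.36 and 0.68 in the same order. *Mag* (0.33 between arrays, 0.18 between pools) and *Prx* (0.30 and 0.12) showed the reverse. A few pools carried much of the spread. The SHR/NHsd pool of 6 weeks was the highest for 6 of 8 genes, all but *Mag* and *Prx*, with a median log2 ratio over the genes of 0.60. The WKY/NTac pool of 6 weeks was the lowest for *Mbp* and *S100b*, and its median of -0.52 was as low as that of WKY/NCrL at 5 months, -0.50.

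Following a subline from 6 weeks to 5 months was possible in the 4 with passing arrays at both ages, each with 1 pool per age. *Pmp22* was lower at 5 months in 4 of 4 sublines, by log2 differences of -0.69 in WKY/NCrL, -0.29 in WKY/NTac, -0.40 in SHR/NCrL and -0.39 in SHR/SP. *Mbp* was lower in 3 of 4, with -2.41, 1.07, -1.46 and -0.90 in the same order, and so was *Myoc*, with -0.94, 0.67, -1.48 and -2.06. *Sox10* was lower in 3 of 4 (-0.55, -0.17, 0.10 and -0.37), and *Mag* in 3 of 4 (-0.49, -0.65, -0.43 and 0.21). *S100b*, *Prx* and *Ngfr* were lower in 2 of 4. In WKY/NCrL all 8 genes were lower at 5 months, in WKY/NTac 4, in SHR/NCrL 5 and in SHR/SP 5. These counts, and those of *S100b*, *Prx* and *Ngfr*, take in differences near 0. Such differences were -0.003 for *S100b* in WKY/NCrL, -0.005 for *Prx* in WKY/NTac and -0.007 for *Ngfr* in SHR/NCrL. Each was smaller than the gene's SD between the 2 arrays of a pool. For *Mbp* and *Myoc* the differences thus had opposite signs in the 2 WKY sublines and the same sign in the 2 SHR sublines.

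**Figure D3:**
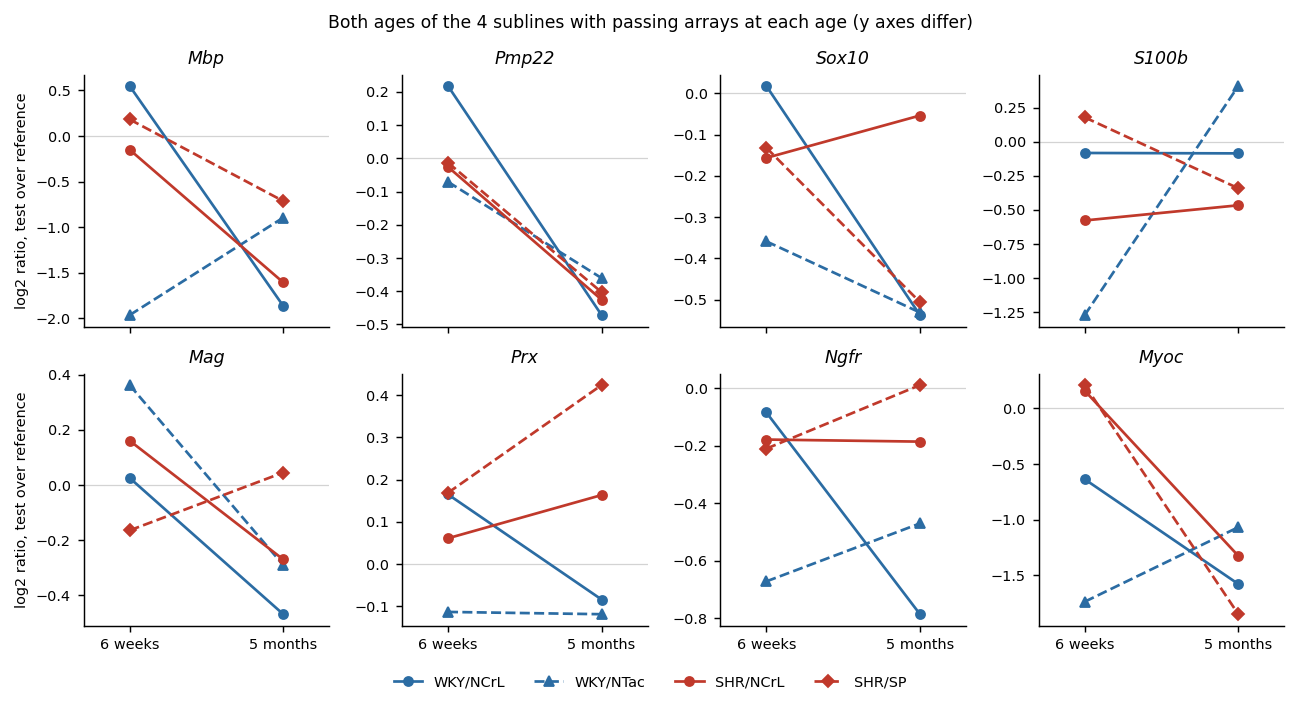
Log2 ratio (y axis, scales differ) of each gene at 6 weeks and 5 months (x axis) in the 4 sublines with passing arrays at both ages, 1 pool per point. All 4 lines of *Pmp22* go down, whereas WKY/NTac (dashed blue) goes up for *Mbp* by 1.07 and for *Myoc* by 0.67.

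Over the 10 pools, which share the reference RNA, the genes fell into a group that varied together and a rest. The Pearson correlation of *Mbp* was 0.839 with *Pmp22*, 0.827 with *Myoc*, 0.815 with *Ngfr*, 0.753 with *Sox10* and 0.65 with *S100b*, but 0.432 with *Prx* and 0.0772 with *Mag*. *Sox10* correlated at 0.851 with *Pmp22*, 0.838 with *Myoc* and 0.821 with *Ngfr*. These values are descriptions and lean on the extreme pools named above. Among 9602 other genes whose probes were well above background on all arrays, those most like *Mbp* included *Cma1* (0.979), a mast cell chymase, *Rplp0* (0.974), a ribosomal protein, *Mmd2* (0.97) and *Lhfpl2* (0.966). Those most like the mean over the 8 genes were *Cma1* (0.982), *Lrg1* (0.981), *Pcdh17* (0.973), *Plekhb1* (0.971) and *Igsf11* (0.971).

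Of 15 other myelin proteins, 9 had a negative log2 change in WKY and 10 in SHR, and none was called in either strain. The 4 members of this list with the highest mean test signal had averaged log2 changes of -0.40 (*Cldn19*, a claudin of the Schwann cell membrane), 0.05 (*Cd9*), 0.11 (*Gldn*) and -0.12 (*Cnp*), none of them called. The median over the 15 was -0.15 in WKY, -0.08 in SHR and -0.04 averaged over strains. *Mog*, *Gjb1*, *Ncmap* and *Drp2* were not well above background on any array, and 9 of the 15 were on all 14 arrays. None of 11 genes of myelin lipid synthesis was called in any of these comparisons, and their median log2 change was -0.13 in WKY and -0.00 in SHR.

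Among 13 other transcription factors of Schwann cells none was called for maturation, with medians of -0.05 in WKY and 0.14 in SHR. *Egr2*, the partner of SOX10 in myelination, had log2 changes of -0.33 in WKY and 1.61 in SHR, neither called; it is named for that role, outside the naming rule. *Zeb2*, a repressor that Schwann cells need to myelinate, was lower in SHR than in WKY averaged over ages by a log2 difference of -0.87 (limma adjusted p = 0.00300), and was the only 1 of the 13 called in any comparison. Of 13 other Schwann cell markers, 2 fell averaged over strains, *Ncam1* by 0.95 (limma adjusted p = 0.00750) and *Gap43* by 0.49 (limma adjusted p = 0.0105), both adhesion or growth proteins of axons and of Schwann cells that do not myelinate. None of the 13 was called in either strain alone, with 9 negative values in WKY, 12 in SHR and medians of -0.12 and -0.17. Of 8 genes of neuregulin and adhesion signals to Schwann cells 0 were called for maturation, while 7 in WKY and 8 in SHR had negative values (medians -0.16 and -0.38).

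Of 15 axon and neuron markers, *Prph*, the peripherin of peripheral axons, fell averaged over strains by 0.52 (limma adjusted p = 0.0386), and no other was called. Medians were -0.09 in WKY and 0.00 in SHR. *Th*, tyrosine hydroxylase of sympathetic axons, had log2 changes of -0.19 in WKY and -0.04 in SHR, neither called. The brightest genes of the list went the other way. *Uchl1* had log2 changes of 0.04 in WKY and 0.94 in SHR, and *Npy* had 0.04 and 0.75, none of them called. Of the 15 genes, 9 had a negative change in WKY and 7 in SHR. *Syt1*, *Snap25*, *Tac1*, *Elavl4*, *Calca* and *Dbh* were not well above background on any array. Of 5 perineurium genes *Lypd2* fell in SHR by 0.81 (limma adjusted p = 0.0139) and averaged over strains by 0.75 (limma adjusted p = 0.00264), with list medians of -0.36 in WKY and -0.80 in SHR. None of 5 melanocyte genes was called for maturation, and *Tyrp1*, *Mlana* and *Tyr* were not well above background on any array.

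Some markers of other cells that the dissected tissue could hold varied over the pools with *Mbp*, and others did not. The correlation of the list mean with *Mbp* was 0.847 for proliferation, 0.627 for endothelial and 0.549 for macrophage genes. It was -0.023 for red blood cell, -0.104 for lymphocyte and -0.738 for smooth muscle genes. Among nerve lists it was 0.93 for other myelin proteins, 0.879 for neuregulin and adhesion signals and 0.822 for perineurium. For other Schwann cell markers it was 0.801 and for myelin lipid synthesis 0.684. Axon and neuron markers had 0.341 and Schwann cell transcription factors 0.121. The mean log2 ratio over 9 adipocyte genes lay between -1.34 and 0.31 in young WKY, at -0.54 and -0.01 in mature WKY, between -0.43 and 0.87 in young SHR, and at -0.91 and -0.88 in mature SHR. It was lowest in WKY/NTac of 6 weeks and highest in SHR/NHsd of 6 weeks, the pools at both ends for *Mbp*, and its correlation with *Mbp* over the 10 pools was 0.848. In SHR 9 of 9 adipocyte genes had a negative log2 change upon maturation (median -1.44) and 1 fell, *Aqp7* by 1.44 (limma adjusted p = 0.0459). *Adipoq*, adiponectin, had -1.92 (limma adjusted p = 0.0600) and was well above background on all 14 arrays. In WKY 4 of 9 had a negative change (median 0.08). Beside these medians *Myoc* had log2 changes of -2.39 in SHR and -0.19 in WKY. The part of adipose RNA in the results for the 8 genes was not tested.

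Fibroblast genes were also highest in SHR/NHsd of 6 weeks. The mean over 7 genes lay between -0.28 and 0.04 in young WKY, at -1.18 and -0.51 in mature WKY, between 0.09 and 0.98 in young SHR, and at -0.64 and -0.79 in mature SHR, with a correlation of 0.844 with *Mbp*. *Col1a1*, a chain of type I collagen, fell in both strains (log2 changes -2.61 in WKY and -2.35 in SHR), as did *Col3a1* of type III collagen (-2.28 and -1.74), and *Apod*, a lipocalin, fell in SHR (-2.77), all with a limma adjusted p under 0.05. Not all fibroblast genes fell. *Dcn*, decorin, had log2 changes of 0.51 in WKY and -0.16 in SHR, and *Pi16* had 0.45 and 0.02, none of them called. Of the 7 genes, 5 had a negative change in WKY and 6 in SHR. The median change over the list was -0.25 in WKY and -0.63 in SHR. The 6 matched proliferation genes were all negative in both strains (medians -1.01 and -0.76), and 4 fell averaged over strains, *Mki67*, *Cdk1*, *Ccnb1* and *Bub1*. The part of these in the results for the 8 genes was not tested.

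Of the remaining lists, smooth muscle genes had positive changes in 7 of 8 cases in WKY and 8 of 8 in SHR (medians 0.20 and 0.24) and endothelial genes negative ones in 4 of 7 and 7 of 7 (medians -0.12 and -0.35), with none called. Medians in WKY and SHR were -0.04 and 0.01 for 7 macrophage genes, 0.17 and 0.11 for 5 lymphocyte genes, -0.27 and -0.66 for 4 red blood cell genes and -0.02 and -0.38 for 2 mesothelial genes, with none called in either strain. Averaged over strains *Slc4a1*, the anion exchanger of red blood cells, fell by 0.91 (limma adjusted p = 0.0313). *Hba-a3*, a haemoglobin chain, was called lower in SHR than in WKY but was well above background on 5 of 14 arrays only, so no size is given.

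**Figure D4:**
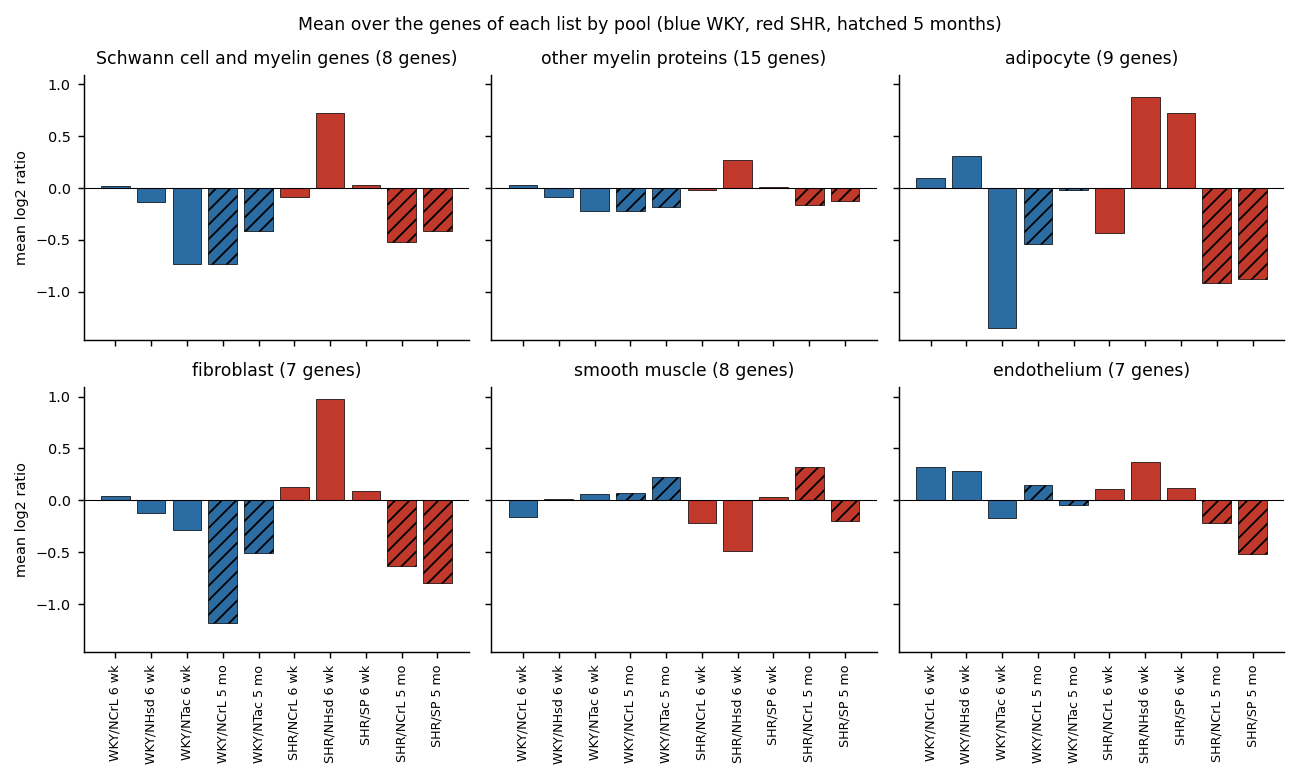
Mean log2 ratio (y axis) over the genes of 6 lists in each pool (x axis), blue for WKY, red for SHR and hatched for 5 months. The 8 Schwann cell and myelin genes, the adipocyte genes and the fibroblast genes are all highest in SHR/NHsd of 6 weeks (0.72, 0.87 and 0.98).

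Leaving out both NHsd pools of 6 weeks, so that each subline in the fit had both ages, gave log2 changes upon maturation in SHR of -1.21 for *Mbp*, -0.40 for *Pmp22* and -1.77 for *Myoc*, of which the last was called (limma adjusted p = 0.0271). The averaged changes of *Pmp22* and *Myoc* were then -0.44 (limma adjusted p = 0.0818) and -0.95 (limma adjusted p = 0.0598), and the strain difference of *Myoc* at 6 weeks was 1.37 (limma adjusted p = 0.170), none of them called. This fit was chosen after the values had been seen. Without the SHR/NHsd and WKY/NTac pools of 6 weeks, picked because they lay at the extremes and therefore given with no test, the log2 changes in SHR were -1.21, -0.40 and -1.77 and the strain difference of *Myoc* was 1.02.

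**Figure D5:**
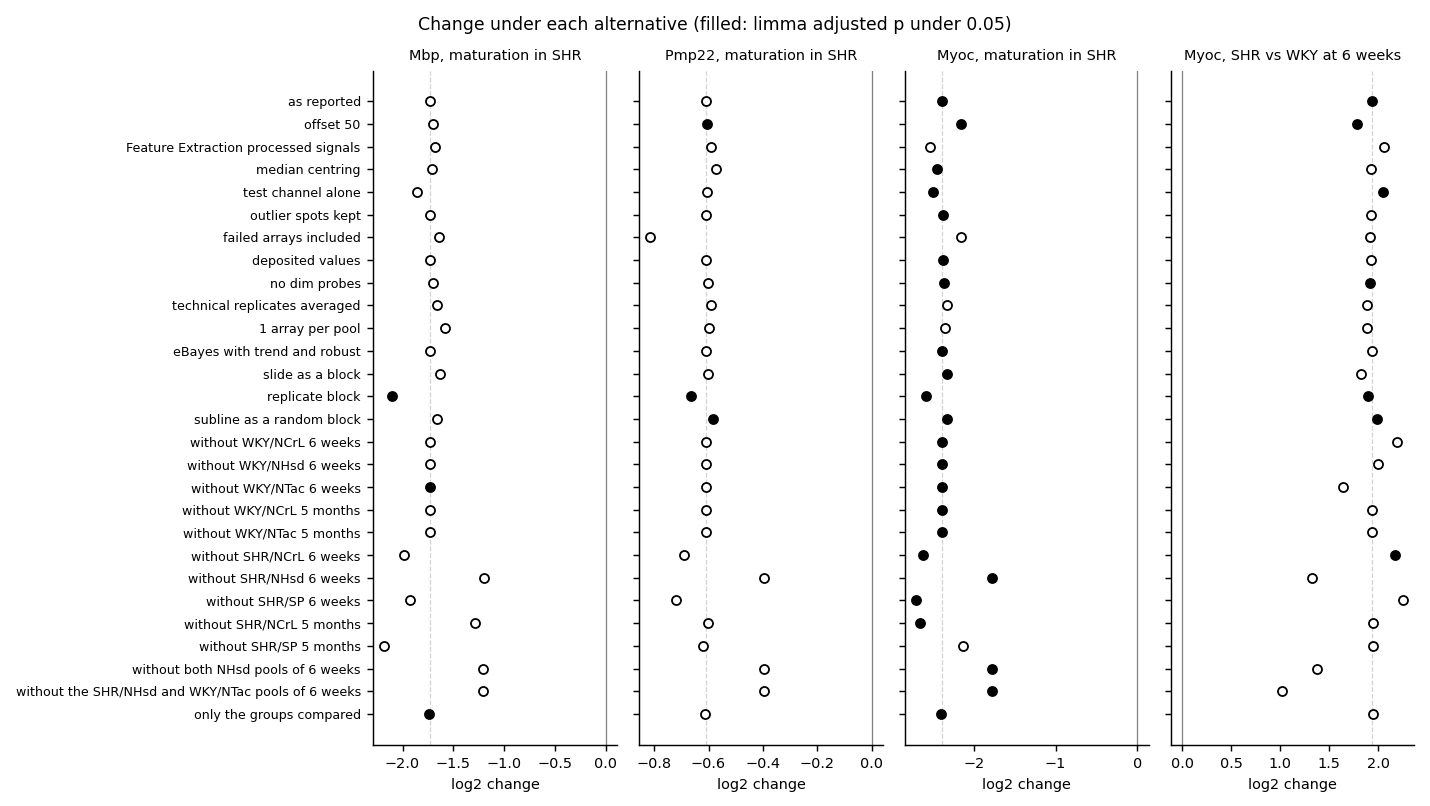
Log2 change (x axis) of *Mbp*, *Pmp22* and *Myoc* upon maturation in SHR and of *Myoc* between strains at 6 weeks, under each alternative (y axis). Filled points passed the limma test at an adjusted p under 0.05; the dashed line is the value as reported. *Myoc* in SHR was called in 22 of 27 alternatives and its strain difference in 6.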

How the data were processed

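Small mesenteric arteries were profiled on 16 two-colour Agilent rat arrays. The intensity values of both channels were deposited as scanner output of Feature Extraction 10.7.3.1, and the authors also deposited log2 ratios per array (R 3.0.0 and limma, per the labels). From the median spot and median background intensities, ratios were rebuilt here with R 4.3.3 and limma 3.58.1 after the study's methods: normexp with an offset of 15, loess within arrays with control spots at weight 0, and spots averaged per probe. Spots marked as outliers by the scanner software were dropped first, a step that the study's methods do not name. The 14 arrays that passed the authors' quality control entered 1 limma fit of 4 strain and age groups, with a correlation of 0.442 among arrays of a pool. P-values were adjusted (Benjamini-Hochberg) over all 30367 probes and called under 0.05. Of these probes, 18355 (60.4%) were named through RefSeq accessions. Dyes were not swapped, so a dye effect of a probe is part of every ratio and cancels in differences.

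The genes, the lists and the tests were chosen with earlier results of these data known. All probes of the 8 genes are named, and of each list the called genes and up to 4 of highest test signal; *Egr2* was named outside this rule, after its values were seen. The results of 1 gene that the rule would name are not reported here. The script was tested on simulated data.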

Additional observations from a re-analysis of the deposited data

Results flagged for a closer look

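Both NHsd pools of 5 months were hybridised but failed the authors' quality control, with 60.4% (SHR) and 56.5% (WKY) of spots well above background, and entered none of the comparisons. They are listed for the genes whose log2 ratio lay above that of every passing WKY pool. On the failed WKY/NHsd array this held for 7 of 8 genes, with *Mbp* at 2.45, *S100b* at 2.22, *Myoc* at 1.5, *Mag* at 1.21, *Sox10* at 0.94, *Prx* at 0.21 and *Ngfr* at 0.056, and not for *Pmp22* at 0.031. On the failed SHR/NHsd array it held for 3 of 8, with *Mag* at 0.94, *Prx* at 0.30 and *Sox10* at 0.22. The other 5 genes of that array were at -0.94 (*Mbp*), -1.15 (*Pmp22*), -0.58 (*S100b*), -0.40 (*Ngfr*) and -0.87 (*Myoc*), and *Pmp22* lay below every passing pool, of which the lowest was at -0.47. Each is 1 array of 1 pool, and the part of array quality in these values was not tested.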

How the results depend on the processing

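Over 38 single-gene values, 1020 alternative values were computed, of which 925 kept direction and side of the threshold, 51 lost and 10 gained a call and 34 changed sign. The cause was not tested for any of them. The number of genes called in WKY was 0, that at 5 months 0 and that of the interaction 0 in all alternatives run. The number called in SHR (1) was 2 with an offset of 50, with subline as a random block and with only the groups compared, 0 with processed signals, failed arrays, averaged technical replicates or 1 array per pool, and 0 to 2 with 1 pool left out. The averaged number (2) was 0 with processed signals, median centring, failed arrays, averaged technical replicates, 1 array per pool or without both NHsd pools, and 0 to 3 with 1 pool left out. The number between strains at 6 weeks (1) was 0 with processed signals, median centring, outlier spots kept, failed arrays, the deposited ratios, averaged technical replicates, 1 array per pool, trend and robust eBayes, slide as a block, only the groups compared or either added set of pools left out, and 0 to 1 with 1 pool left out. The median change was 0.059 in WKY with failed arrays. In SHR it was -0.59 to -0.20 with 1 pool left out, and -0.20 without both NHsd pools or without SHR/NHsd and WKY/NTac of 6 weeks. Those last 2 alternatives were chosen after seeing the data.

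None of the values that changed sign was called. With the failed arrays the log2 change in WKY was 0.33 for *Mbp*, 0.13 for *Sox10* and 0.75 for *Myoc*, that of *Mag* in SHR 0.27, and the strain difference at 5 months -0.99 for *Mbp*, -0.36 for *Pmp22* and -0.091 for *Sox10*. With the test channel alone *Prx* in WKY was 0.054 and *Mag* between strains at 6 weeks 0.034. *Mag* in SHR was 0.044 with processed signals and 0.27 with 1 array per pool, where *Prx* in SHR was -0.10, and *Pmp22* at 5 months was -0.025 with median centring. With 1 pool left out, sign changes gave ranges of -0.49 to 0.067 for *Myoc* in WKY, -0.18 to 0.13 for *Mag* in SHR, -0.40 to 0.11 for *Ngfr* in SHR, -0.076 to 0.25 for *Pmp22* between strains at 6 weeks, and at 5 months -0.26 to 0.70 for *Mbp* and -0.054 to 0.058 for *Pmp22*. Without both NHsd pools *Ngfr* in SHR was 0.11 and *Pmp22* at 6 weeks -0.092. Without SHR/NHsd and WKY/NTac, *Ngfr* in SHR was 0.11, and at 6 weeks *Mbp* was -0.28, *Pmp22* -0.14, *Sox10* -0.066, *S100b* -0.18 and *Ngfr* -0.013.

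The replicate numbers of the labels name different sublines in different groups and did not pair the samples. With the replicate number as a block, 4 genes were called in SHR (*Mbp*, *Pmp22*, *S100b* and *Myoc*), *Mag* in SHR was 0.022, and at 5 months *Mbp* was -0.50 and *Pmp22* -0.061. With 2 or 3 pools a group, and *Mag* and *Prx* near the spread between arrays, small changes could not be seen.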

Other observations

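The genes whose pattern over the 10 pools was most like that of *Myoc*, among 9602 other genes and chosen after its values were seen, were *Apod* (Pearson r 0.972), a lipocalin of fibroblasts and Schwann cells, *Ptn* (0.965), the growth factor pleiotrophin, *Lrg1* (0.953), *Plekhb1* (0.951) and *Ctxn3* (0.944). Upon maturation in SHR *Apod* fell by 2.77 on the log2 scale (limma adjusted p = 0.0190), *Ptn* fell by 1.59 (limma adjusted p = 0.0147) and *Ctxn3* fell by 1.82 (limma adjusted p = 0.0441), while *Lrg1* and *Plekhb1* had log2 changes of -1.04 and -1.09 that were not called. In WKY the changes of these 5 genes lay between -0.70 and -0.27. The pools share the reference RNA, and the correlations are a description.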
